A study of Mus musculus with 8 samples.

Results

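The genes Cd28, Ctla4 and Icos lie side by side on mouse chromosome 1 and were described here across all libraries of the study. They are 3 of the 21883 protein-coding genes of the RefSeq table for build mm10, and were chosen by name. Each gene span was taken with 5 kb on both sides, and the whole stretch from 5 kb before Cd28 to 5 kb after Icos was followed in 27 of the 263154 windows of 10 kb on the autosomes and X.

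The study profiled regulatory T (Treg) cells of C57BL/6 mice aged 8 to 12 weeks. Tumour-infiltrating Treg of mice that lack Jmjd1c in Treg through a conditional knockout (cKO) and of Jmjd1c wild-type mice (WT) were compared by CUT&RUN for H3K9me2, a histone mark of repressed chromatin that JMJD1C is reported to remove, with 3 libraries per genotype. Tumour Treg and spleen Treg, both of the WT genotype, were compared by ATAC-seq, which marks open chromatin, with 1 library per tissue. Cells were isolated with magnetic beads followed by a fluorescence sort. The promoter that drives Cre and the kind of tumour are not given in the sources used here. The labels do not say that replicates are separate animals, so p-values measure the spread between libraries, which may be technical. Per the file headers, the source names of cKO replicates 1 and 3 carry the same knockout number, so these libraries may share a source. The other parts of the source names differ between the genotypes, so that any batch they stand for cannot be told apart from genotype.

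CD28 is the receptor on T cells that binds CD80 and CD86 on antigen-presenting cells and adds the second signal to that of the T cell receptor. CTLA-4 binds the same ligands more tightly and withholds them from CD28, and Treg carry it at all times as one of their main means of suppression. ICOS, the remaining receptor of the cluster, binds ICOSL, signals mainly through phosphoinositide 3-kinase and is high on activated Treg.

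On mm10, Cd28 spans chr1:60746388-60773359, Ctla4 chr1:60909025-60915832 and Icos chr1:60960773-61000322. Positions before and after a gene follow increasing coordinates. The stretch runs from base 60741388 to base 61005322 and measures 263.935 kb, most of it between the genes. Between Cd28 and Ctla4 the annotation places the long non-coding RNA genes 2310016D23Rik, Gm38137 and Gm39650, and between Ctla4 and Icos it places Gm34649. RefSeq promoter windows, from 250 bases before a transcription start to 50 after it, were held for 5 genes of the stretch, of the 3 receptors for Ctla4. Both sequences that follow are RefSeq promoter windows on GRCm38.p6, plus strand. The Ctla4 window (chr1:60908775-60909074) is shown because it held no peak of any library, and its capitals mark the NFAT core and a TATA match. The Gm39650 window (chr1:60886839-60887138) is shown because it was the promoter window of the stretch that a tumour ATAC peak reached, and its capitals mark the part inside that peak.
Ctla4 promoter: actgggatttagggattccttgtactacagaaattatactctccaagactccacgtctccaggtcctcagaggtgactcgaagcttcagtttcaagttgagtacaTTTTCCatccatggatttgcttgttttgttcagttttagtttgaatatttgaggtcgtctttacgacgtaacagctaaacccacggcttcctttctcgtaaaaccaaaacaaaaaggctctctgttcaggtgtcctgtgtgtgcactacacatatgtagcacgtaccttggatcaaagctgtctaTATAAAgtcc
Gm39650 promoter: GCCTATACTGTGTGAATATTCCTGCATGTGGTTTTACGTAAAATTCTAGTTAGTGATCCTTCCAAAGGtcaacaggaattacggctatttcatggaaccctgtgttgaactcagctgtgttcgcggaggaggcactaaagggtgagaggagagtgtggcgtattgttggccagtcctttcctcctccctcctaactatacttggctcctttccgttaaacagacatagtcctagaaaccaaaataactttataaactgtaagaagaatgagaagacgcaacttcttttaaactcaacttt

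The motif search in the Ctla4 window covered both strands. The NFAT core GGAAAA, the binding core of the calcineurin-controlled factors of T cell activation, matched once on the other strand, as TTTTCC, at position -145 from the start, and was present in 23.4% of all 32851 promoter windows. The letters TATAAA matched once, at position 40 after the RefSeq start, and were present in 13.6% of windows. The forkhead core TGTTTAC (3.65% of windows), the AP-1 site TGANTCA (7.81%) and the STAT site TTCNNNGAA (8.30%) had no match in these letters. No searched motif overlapped another in the window. A match is a description of the letters and not a measured site.

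The libraries held 24774509 to 30313851 tags for H3K9me2, and 11293674 (tumour) and 11068821 (spleen) tags for ATAC. What was deposited are peaks called in each library alone, so the covered percent, the share of a region's length inside that library's peaks, was the measure of H3K9me2. Over the autosomes and X, peaks covered 3.39 to 4.10% in the WT libraries and 3.63 to 5.36% in the cKO libraries, and cKO replicate 1 had the most peaks. Peak lists hold no read depth over exons, so the deletion of Jmjd1c could not be checked in them. ATAC peaks lay in or within 5 kb of 7 of 7 genes listed as Treg markers in both tissues. Foxp3 and Il2ra were among them, as were Cd4 and Cd3e, which are not particular to Treg. Peaks also lay at 5 of 18 markers of other cell types in each tissue. These were Cd79a, Itgam, Spi1, Col1a1 and Pecam1 in tumour, and Cd79a, Dct, Col1a1, Pecam1 and Cdh5 in spleen. Over all protein-coding genes, 59.9% had a tumour peak and 47.1% a spleen peak. Of the myeloid markers, Itgam and Spi1 had 2 and 3 ATAC peaks in tumour and 0 in spleen, and Lyz2 and Csf1r had 0 in both. Of the B cell markers, Cd79a had 1 peak in each tissue and Ms4a1 had 0 in both. The CD8 T and NK markers Cd8a, Cd8b1, Ncr1 and Klrb1c had 0 in both.

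H3K9me2 peaks were nearly absent from the 3 receptor genes in both genotypes. Ctla4 had 0% of its span with flanks covered in all 6 libraries, and so had Icos. Cd28 had 2.70% covered in cKO replicate 1 and 0% in the other 5 libraries, with a mean of 0.902 ± 1.56% (SD, n = 3) in cKO and 0% in WT. The Cd28 coverage came from 2 peaks of 500 bp. One peak, at chr1:60742984-60743484 in the 5 kb before the gene, had an authors' score of 5.5 tags, and the other, at chr1:60765873-60766373 inside the gene, had a score of 6 tags, where the lists end at 5 tags. Because these were bulk samples, fewer cells carrying the mark and less of it per cell cannot be told apart, and a region without a peak is one without local enrichment detectable at this depth, not one shown to lack the mark.

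No member reached the mean of 1% over the 6 libraries that was set for testing, so 0 of 3 entered the limma fit of cKO against WT. Of the 19012 genes that did, 0 had an adjusted p under 0.05 (0%) in limma, while 1590 had an unadjusted p under 0.05. By median, genes covered 1.26 percentage points more in cKO, and at 13% of tested genes the 3 cKO libraries all lay above the 3 WT libraries. Genes with 0 bp covered in all 6 libraries, as Ctla4 and Icos, were 1457 of 21883 (6.66%). The share depends on length, and among genes whose span with flanks measured 10 to 20 kb, as that of Ctla4, it was 13.2% (1045 of 7924). Among those of 40 to 80 kb, as Icos, it was 2.24% (88 of 3923). Of the genes of 20 to 40 kb, as Cd28, 7.64% (493 of 6454) had a peak in at most 1 library. Freedom from peaks was thus not rare for a gene as short as Ctla4 and was less common among genes as long as Icos.

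**Figure D1:**
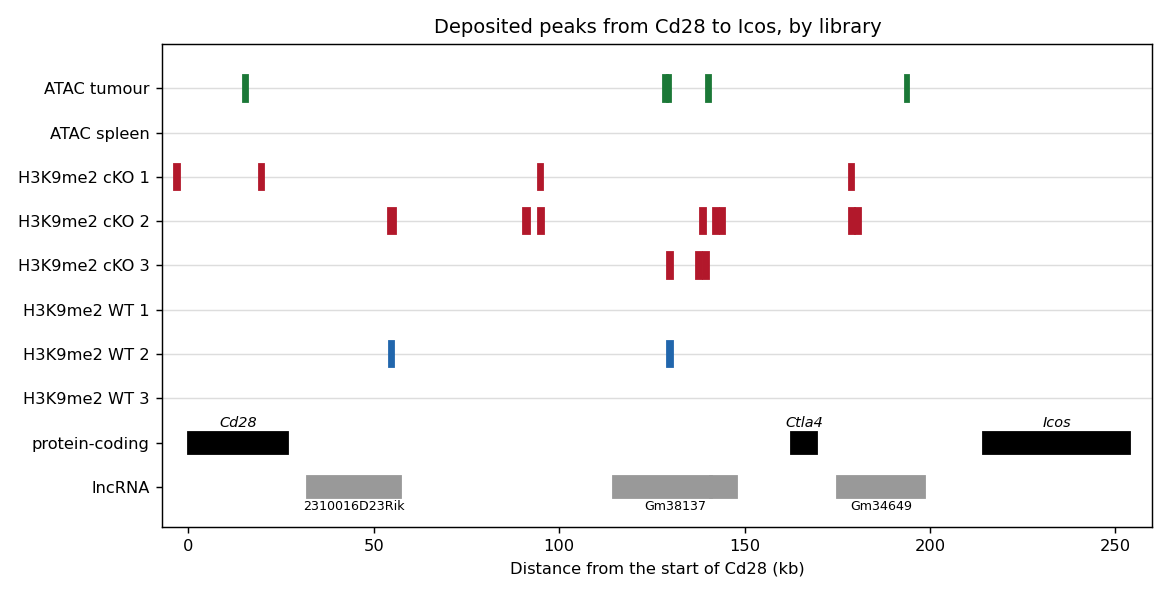
Deposited peaks from Cd28 to Icos in each of the 8 libraries, by distance from the start of Cd28 in kb; coloured bars are peaks, each widened by 0.5 kb on both sides to be visible so that close peaks run together, black bars protein-coding genes and grey bars long non-coding RNA genes (Gm39650, inside Gm38137, is not drawn). The 15 cKO and 2 WT H3K9me2 peaks and the 5 tumour ATAC peaks lie mostly between the genes, and no peak of any library lies in Ctla4 or Icos.

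Over the stretch as a whole, coverage was low in every library and higher in the cKO libraries than in the WT libraries. Peaks covered 0.758, 1.96 and 0.624% of it in cKO replicates 1, 2 and 3, and 0, 0.379 and 0% in WT replicates 1, 2 and 3. The lowest cKO library lay above the highest WT library, so the genotypes did not overlap. The means were 1.11 ± 0.734% in cKO and 0.126 ± 0.219% in WT (SD, n = 3 each), a difference of 0.986 percentage points. The two-sided exact permutation test gave p = 0.1, the smallest value that 3 against 3 libraries allow, so this design cannot pass 0.05. Separation in this direction was found in 1947 of 9958 windows of the stretch's length (19.6%), and the opposite in 262. In a limma fit across those windows, chosen after the data were seen, the difference had a standard error of 0.343. Its unadjusted p was 0.0248 and its adjusted p 0.288 in limma. There, 0 of 9958 windows were called (0%) and 1549, the stretch among them, had an unadjusted p under 0.05. The median difference over all windows was 0.812 percentage points. In percentage points, the difference in the stretch was thus near that of windows of its length in general. Its level was lower, at 1.11% in cKO and 0.126% in WT against window medians of 4.34 and 3.69%. Divided by each library's own coverage of the autosomes and X, the stretch came to 0.141, 0.440 and 0.172 times that level in cKO and to 0, 0.0925 and 0 times in WT. The genotypes were still apart on this scale, and the largest cKO value was that of replicate 2. The share of windows of this length that were apart after scaling is not given, so this separation is not read as particular to the stretch. Without cKO replicate 2 the difference was 0.565 percentage points.

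The peaks behind these values were few, short and weak. The cKO libraries held 4, 8 and 3 peaks, by replicate number, and the WT libraries 0, 2 and 0, which makes 17 in all, of which 14 had the caller's minimum size of 500 bp. The authors' scores ran from 5 to 7.5 tags, and 0 of 17 peaks exceeded the median score of their own list, which lay between 8 and 9.5 tags. The highest score, 7.5 tags, belonged to a cKO replicate 2 peak at chr1:60926799-60927299, beyond Ctla4, and 56.7% of that library's peaks scored higher. When only the stronger 50% of each list was kept, the stretch had 0% covered in all 6 libraries. When every list was cut to the same number of strongest peaks, coverage was 0, 1.22 and 0.624% in cKO and 0% in each WT library. On equal lists the difference was 0.616 percentage points, with an exact permutation p of 0.4. The excess of the cKO libraries was thus carried by peaks near the calling threshold, and on equal lists cKO replicate 1 no longer stood above the WT libraries. The lists were not of equal length, as cKO replicate 1 held 178546 peaks against 109816 in WT replicate 3, and the part this plays in the difference was not tested beyond these values.

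**Figure D2:**
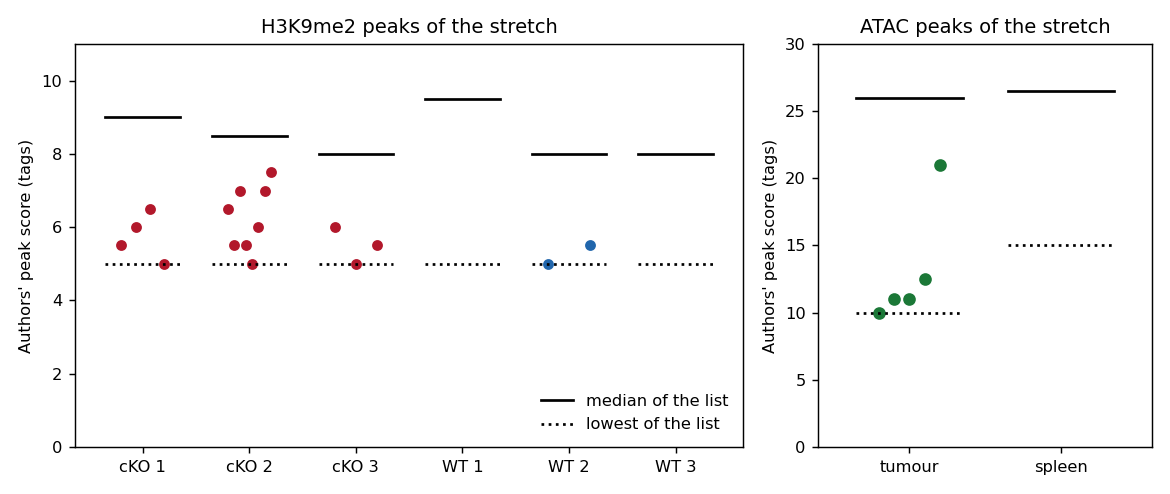
Authors' score, in tags, of each peak in the stretch (points) by library, for H3K9me2 on the left and ATAC on the right; solid lines are the median and dotted lines the lowest score of the library's whole list. All 17 H3K9me2 peaks and all 5 tumour ATAC peaks lie below the median of their list.

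The 17 peaks merged into 13 sites, and 0 sites were seen in more than 2 libraries. Of the 4 sites seen in 2 libraries, 2 joined cKO replicates 1 and 2. One of these, at chr1:60841150-60841732, lay between Cd28 and Ctla4 outside any annotated gene named here. The other, at chr1:60924984-60925676, lay in Gm34649, and the centre of its cKO replicate 1 peak was 9.40 kb after the end of Ctla4. The other two sites joined WT replicate 2 with a cKO library. They were chr1:60800721-60801950 in 2310016D23Rik, shared with cKO replicate 2, and chr1:60875987-60876512 in Gm38137, shared with cKO replicate 3. No site was seen in all cKO libraries, so the difference in coverage was not one recurring peak.

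By place, 1 peak lay before Cd28, 1 inside it, 12 between Cd28 and Ctla4, 3 between Ctla4 and Icos and 0 in Ctla4 or Icos. The intergenic part between Cd28 and Ctla4, with the flanks left out, had 0.398, 3.31 and 1.31% covered in cKO replicates 1 to 3 and 0, 0.796 and 0% in the WT replicates. The genotypes overlapped there, with an exact permutation p of 0.2. Between Ctla4 and Icos coverage was 1.43, 2.86 and 0% in cKO and 0% in all WT libraries, with an exact permutation p of 0.4. From the last peak to the end of the stretch, 78.0 kb that hold all of Icos were free of H3K9me2 peaks in all 6 libraries.

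In windows of 10 kb, 18 of 27 were free of H3K9me2 peaks in all 6 libraries, with a longest run of 8 windows, which holds Icos. A peak of any cKO library lay in 9 windows and a peak of any WT library in 2. The shares of all 10 kb windows with such peaks are not given, so 9 against 2 is not read as a result about the stretch. In 0 windows were the 3 cKO libraries all above or all below the 3 WT libraries. The 18 windows free of peaks could not separate, and the share over all 10 kb windows is not given. This count is therefore not read as a result about the stretch. Of the 6 windows that reached a mean of 1%, 0 were called by limma, against 0 of 204258 windows over the genome (0%), of which 5667 had an unadjusted p under 0.05. The smallest p belonged to the window at chr1:60880001-60890000, in Gm38137 and Gm39650 before Ctla4. It had 0, 10 and 11.47% covered in cKO replicates 1 to 3 and 0% in each WT library, a difference of 7.16 percentage points (SE 4.13, adjusted p = 0.764 in limma). That window was high in 2 of 3 cKO libraries, and cKO replicate 1 was level with WT at 0%.

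The chromatin on either side of the stretch held more H3K9me2 peak coverage in the same libraries. In the 169313 bp before it, up to Raph1, the gene of the actin regulator lamellipodin, coverage was 5.40, 4.23 and 3.11% in WT and 8.11, 8.74 and 5.42% in cKO. In the 628344 bp after it, up to Pard3b, a cell polarity gene, coverage was 3.10, 3.75 and 3.79% in WT and 5.88, 4.73 and 4.44% in cKO. The stretch was lower than both neighbours in 6 of 6 libraries. Within a library, its coverage minus that of the region before was -5.22 ± 1.64 percentage points (SD, n = 6), and minus that of the region after it was -3.66 ± 0.818 points. Against the autosomes and X the difference was -3.52 ± 0.733 points. Each of these 3 comparisons, chosen after the data were seen, had a two-sided exact sign-flip p of 0.03125, the smallest that 6 libraries allow, and 0.03125 after Benjamini-Hochberg adjustment over the 3. With only the stronger 50% of each list, the difference from the region before was -1.36 points with an exact sign-flip p of 0.0625, and with any 1 library left out no p under 0.05 can be had.

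The cKO means were above the WT means beside the stretch too. Raph1 with its flanks had 6.63, 7.74 and 6.29% covered in cKO and 3.30, 2.03 and 2.99% in WT, without overlap. Separation in this direction was found at 13% of tested genes. The Raph1 difference of 4.11 percentage points had an adjusted p of 0.566 over all genes in limma. Pard3b with its flanks had 7.05, 4.50 and 5.11% in cKO and 3.77, 4.91 and 3.30% in WT, and these ranges overlapped (adjusted p = 0.729 in limma). Neither neighbour passed the test over all genes.

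**Figure D3:**
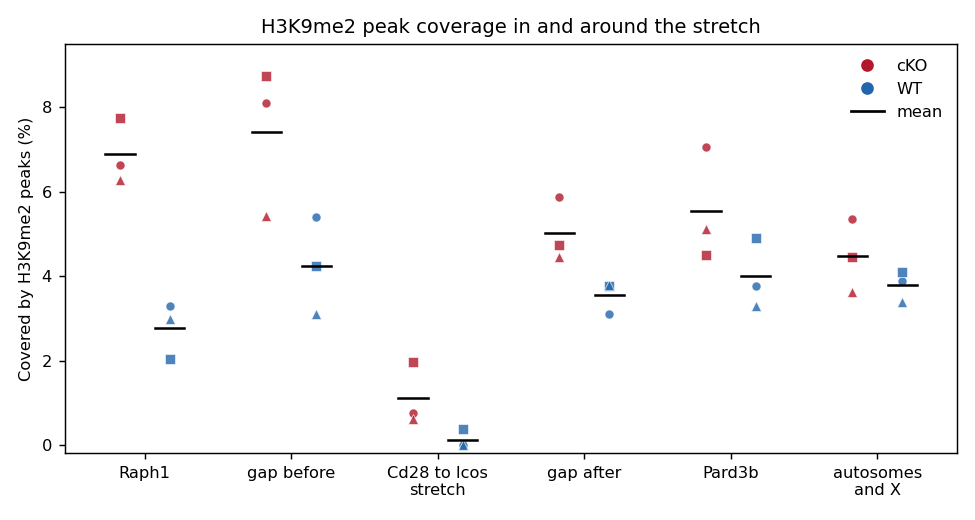
H3K9me2 peak coverage, in percent of length, of Raph1 and Pard3b with 5 kb flanks, the regions between them and the stretch, the stretch from Cd28 to Icos, and the autosomes with X; each point is a library (circle replicate 1, square replicate 2, triangle replicate 3) and lines are group means (n = 3). In each of the 6 libraries the stretch lies below both regions beside it, with means of 1.11% in cKO and 0.126% in WT.

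Among regions of its length the stretch ranked low. Its mean over the 6 libraries was 0.620%, against a median of 4.26% over the 7390 windows of that length that hold a gene. Of those windows 122 (1.65%) were lower, and 68 of them had no peak at all. Among all 9958 windows, genes or not, 355 (3.56%) were lower. In WT libraries alone the stretch stood at 0.126% against a median of 3.69% over all windows, and in cKO at 1.11% against 4.34%.

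**Figure D4:**
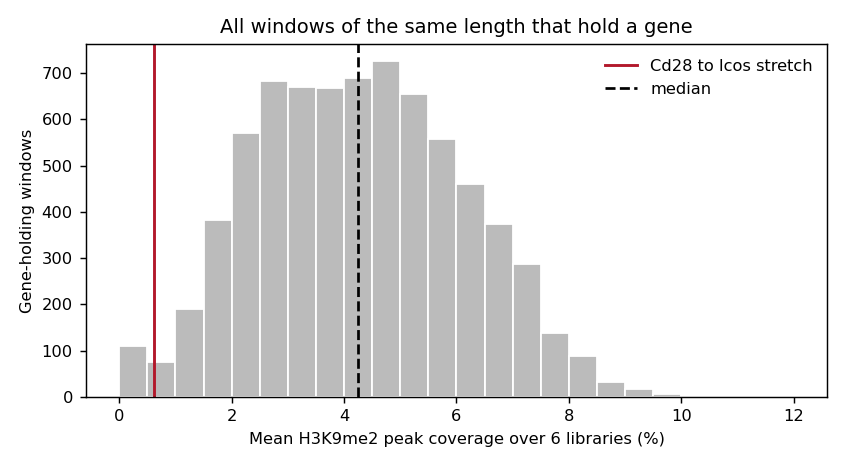
Number of gene-holding windows of the stretch's length by their mean H3K9me2 peak coverage over the 6 libraries, in percent. The red line marks the stretch at 0.620% and the dashed line the median of 4.26%.

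Open chromatin in the stretch was called in tumour Treg and not in spleen Treg. The tumour library had 5 ATAC peaks there and the spleen library 0, with 1 library per tissue and so no test. Distances from a gene were taken from the centre of the peak. One tumour peak lay in Cd28, at chr1:60761576-60761898, 15.3 kb from the gene's start, with an authors' score of 21 tags. The exons of Cd28 are not in the annotation used here, so exon and intron were not told apart. The second and the third lay 33.9 and 33.0 kb before Ctla4 in Gm38137, at chr1:60874967-60875289 (12.5 tags) and chr1:60875849-60876171 (10 tags). The fourth lay 22.3 kb before Ctla4, at chr1:60886584-60886906 (11 tags), and reached 68 bp into the Gm39650 promoter window printed above. The fifth, at chr1:60940027-60940349 (11 tags), lay in Gm34649, 24.4 kb after the end of Ctla4 and 20.6 kb before Icos. Most of the peaks thus lay between the receptor genes, and none lay at the start of one.

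The spleen library was called at a higher threshold, 15 tags against 10 in tumour, and with a wider peak, 869 bp against 322 bp. It held 13078 peaks against 27625 in tumour, with 4.77% of its tags in peaks against 11.03%. Absence from the spleen list is therefore not directly comparable, and the part that library sensitivity plays was not tested. Of the 5 tumour peaks 1, that in Cd28, reached 15 tags, and 0 of 5 exceeded the tumour list's median of 26 tags. Over the genome 59.7% of the 27625 tumour peaks had no overlapping spleen peak. That share was 49.7% for tumour peaks of 15 tags or more and 90.7% for weaker ones. A lack of spleen peaks was therefore common for tumour peaks as weak as 4 of these. Of the windows of the stretch's length with 5 or more tumour peaks, 55 of 2367 (2.32%) had no spleen peak. When these were limited to windows with at most 1 tumour peak of 15 tags or more, 3 of 10 had none (30%). The nearest spleen peaks lay 397 kb before and 130 kb after the stretch.

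By gene, 1 of the 3 receptors, Cd28, had a tumour ATAC peak in its span with flanks, where 59.9% of all protein-coding genes had one. None of the 3 had a spleen peak, where 47.1% of genes did. With 3 genes, neither count can be read apart from these shares. From the Ctla4 start, the nearest tumour peak was 22.3 kb away, the nearest spleen peak 227 kb and the nearest H3K9me2 peak of any library 16.2 kb. Of the 7 promoter windows in the stretch, 1 overlapped a tumour peak, 0 a spleen peak and 0 an H3K9me2 peak. Over all 32851 promoter windows these shares were 28.5%, 23.5% and 23.1%. The Ctla4 promoter thus held no called ATAC peak in tumour or spleen Treg of WT mice. It also held no called H3K9me2 peak in tumour Treg of either genotype.

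The tumour ATAC peaks and the H3K9me2 peaks came close to each other before Ctla4. The third ATAC peak overlapped H3K9me2 peaks of WT replicate 2 and cKO replicate 3, and the other 4 overlapped none. Over the genome 34.9% of tumour ATAC peaks overlapped an H3K9me2 peak in 1 library or more, so 1 of 5 is no departure from that share. The second ATAC peak lay 698 bp from the WT replicate 2 peak and 723 bp from that of cKO replicate 3, and the fourth lay 207 bp from a peak of cKO replicate 3. Within 1 kb, 3 of 5 had an H3K9me2 peak, against 61.3% over the genome. The ATAC peak in Cd28 lay 3.975 kb from the nearest H3K9me2 peak, in cKO replicate 1.

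The ligands, partner receptors and signalling genes of costimulation, a list of 34 genes on other parts of the genome, held 0 genes free of H3K9me2 peaks in all 6 libraries, where the share over all genes was 6.66% and Ctla4 and Icos were free. Of the 32 that were tested 0 passed in limma, against 0% of all genes. The cKO mean was higher at 23 genes, lower at 8 and equal at Carmil2, with a median difference of 0.834 percentage points against 1.26 over all tested genes, and 1 gene had an unadjusted p under 0.05. At 5 genes (Cd86, Btla, Pik3r1, Prkcq and Rc3h1) the cKO libraries all lay above the WT libraries, against 13% of tested genes. The smallest p belonged to Btla, an inhibitory receptor of the CD28 family, with 9.01 ± 3.95% covered in cKO and 1.99 ± 0.950% in WT (SD, n = 3, adjusted p = 0.541 in limma). Its relative Pdcd1, the gene of PD-1, had 2.48 ± 4.29% in cKO and 3.61 ± 1.37% in WT. Of the ligands, Cd80 had 2.82 ± 1.66 and 1.82 ± 1.37% covered, Cd86 7.53 ± 1.96 and 5.68 ± 0.916%, and Icosl, under the mean set for testing, 1.12 ± 1.94 and 0.203 ± 0.352%, in cKO and WT. The ligands are best known from antigen-presenting cells. Roquin-2 (Rc3h2) and Roquin-1 (Rc3h1), which degrade Icos mRNA, had 3.62 ± 1.81 and 3.65 ± 0.736% in cKO against 0.763 ± 0.763 and 1.36 ± 0.656% in WT, with adjusted p of 0.568 each in limma. Of the signalling genes, Pik3r1, the regulatory subunit of phosphoinositide 3-kinase, had 5.85 ± 2.51% in cKO and 2.31 ± 0.705% in WT (adjusted p = 0.568 in limma). Its catalytic subunit of lymphocytes, Pik3cd, had 1.14 ± 0.400% in cKO and 3.75 ± 2.47% in WT (adjusted p = 0.594 in limma), and the kinase gene Tbk1, whose product acts downstream of ICOS, had 5.48 ± 2.82 and 2.53 ± 1.37% (adjusted p = 0.621 in limma). None of these differences passed. All 34 genes had a tumour ATAC peak and 32 had a spleen peak, against 59.9 and 47.1% of all protein-coding genes. These shares were not matched for gene length.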

How the data were processed

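H3K9me2 CUT&RUN (3 cKO and 3 WT libraries) and ATAC-seq (1 tumour and 1 spleen library) peak lists were used, and titles gave group and replicate. Bowtie2 2.4.2, SAMtools 1.11, Trim Galore 0.6.6, deepTools, HOMER and Picard, and mm10 as the build, are listed without roles per the submitters' processing notes. Per the file headers, peaks were called by HOMER findPeaks in each library alone, without a control library. H3K9me2 used histone style, a peak size of 500 bp, 5 tags and a Poisson p of 0.05 against the surrounding 10 kb, and ATAC used factor style with a fold of 4 over the local region. Each peak's tag signal is normalized to 1 library size per the file headers, its score is in tags, the fold over the local region is a ratio and its p-value comes from the caller. The deposited ATAC lists also give a focus ratio, a fraction, and the deposited H3K9me2 lists a region size in bp (other unit).

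The deposited H3K9me2 lists held 24.4 to 43.9% of the peaks counted in their headers, with folds of 2.01 or more and p-values of 0.0496 or less, so a filter that no header states was applied. Covered percent therefore measures local enrichment and not the amount of the mark, so that wide, even domains may have no peak. Shifting of ATAC reads is not given in the sources used.

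Peaks were merged within each library. Genes (span with 5 kb on both sides, mean of 1% or more) and 10 kb windows were fitted with limma (version 3.58.1, R version 4.3.3, eBayes with trend, Benjamini-Hochberg over all features, threshold 0.05), and single values with exact permutation tests, two-sided. The limma step was tested on simulated data with planted shifts larger than any difference described here. That test therefore does not show its power for differences of the size seen. Python 3.11.15 was used elsewhere. An overlap was 1 bp or more. The members and all lists were chosen with earlier results of these data known. Named were the 3 members, the nearest protein-coding gene on each side, the 6 costimulation genes with the smallest limma p, every ATAC peak of the stretch and every 10 kb window whose genotypes did not overlap, of which there was none. The window with the smallest p was named after its values were seen, as were single H3K9me2 peaks, the ligands, Pdcd1 and the listed genes whose genotypes did not overlap. The genes most like each tested member were to be named, and no member was tested. Alternatives were lists of equal length, the stronger 50% of each list, a 10 kb flank, shifted windows, no filter on coverage, scaling to genome-wide coverage, a replicate block and leaving out each library. The tables used here hold no genome sequence, so ATAC peak sequences were not read. The values of 1 marker gene are not reported here.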

Additional observations from a re-analysis of the deposited data

How the results depend on the processing

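Of the alternatives run, 80 values were counted as the same, 6 as moved and 13 lost a p under 0.05. Tested values were the same if they kept their side of the threshold, and the stretch moved if its difference fell to 0. Untested gene differences were judged by the SD between replicates, peak counts by their ratio, and scaled or arcsine values by their sign. Many values could hardly change. Ctla4 and Icos differed by 0 in nearly every setting, and the exact permutation test of the stretch cannot pass 0.05. The Cd28 difference of 0.902 percentage points, smaller than its SD, went to 0 on lists of equal length, with the stronger 50% of each list and without cKO replicate 1. With the stronger 50% of each list, the stretch difference was 0 percentage points, the ATAC peaks of the stretch 0 and those overlapping H3K9me2 0, since no peak of the stretch is in the stronger 50%, and no 10 kb window of the stretch was left to test. There the stretch minus the region before it was -1.36 points (exact sign-flip p = 0.0625). Tumour peaks at the spleen threshold left 1 ATAC peak, and H3K9me2 within 1 kb was found at 3 ATAC peaks. With a 10 kb flank Ctla4 had a difference of 1.24 percentage points in place of 0. Leaving out each library gave -5.64 to -4.79 points against the region before and -3.84 to -3.37 against that after, each with an exact sign-flip p of 0.0625, the smallest that 5 libraries allow. It gave 0.565 to 1.23 points for the stretch between genotypes and 0 to 1.35 for Cd28. With a replicate block the stretch difference was 0.986 points, with an exact sign-flip p of 0.25, the smallest that 3 pairs allow, and 0 windows were called. Over tested genes, deviations from the genotype mean correlated at 0.0757, 0.00501 and 0.0259 between same-numbered cKO and WT libraries. Between differently numbered ones these deviations correlated at -0.0538 to 0.0265, so the numbers were not taken to pair libraries. Scaled to each library's coverage of the autosomes and X, the difference was 0.220 times that level (exact permutation p = 0.1). Without the 1% filter Cd28 had an adjusted p of 0.698 in limma. Depth limits the weakest peaks, with scores of 5 to 7.5 tags where calling starts at 5, and 0 called windows do not show that the genotypes are alike there.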
